A study of Homo sapiens with 8 samples.

Results

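Cytosolic ribosomal proteins are the protein components of the ribosomes that translate nuclear messenger RNAs. Their genes were taken by symbol: RPL or RPS followed by a number, with X, A or L as optional suffix, together with RPLP0, RPLP1, RPLP2 and RPSA, and without RPS6 kinases, pseudogenes and Y-linked genes. The rule named 82 genes, of which 57 had a probe set assigned to them alone and were measured, among 19775 genes in all. Of these, 36 encode proteins of the large subunit and 21 of the small subunit. The other 25, which include RPL5, RPL10, RPS26, RPLP0 and RPSA, are left out of the comparisons. For 15 of them, probe sets that list several genes are described at the end. Each gene was represented by its probe set with the highest mean intensity over all arrays.

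Messenger RNA was profiled on 8 Affymetrix arrays of CUTLL1, a single human T-cell acute lymphoblastic leukemia (T-ALL) line with an active NOTCH1 pathway, so that all groups share 1 genetic background. There were 2 arrays for each of 4 groups, all collected after 48 h: vehicle (DMSO), the gamma-secretase inhibitor PF-03084014 at 1 microM, the glucocorticoid dexamethasone at 1 microM, and both compounds at 1 microM each, called the combination here. The labels name a first and a second replica of each group without saying whether these were separate cultures, so p-values measure the spread between these samples, which may be technical. All 8 T-lineage markers looked for (CD3D, CD3E, CD3G, CD7, CD2, CD5, LCK and CD247) read between 8.82 and 13.78 log2 intensity on every array. Of 20 measured markers of B-lineage, myeloid, erythroid, megakaryocytic, epithelial and stromal cells, 16 stayed below 8 on all arrays. The others reached 13.31 on the epithelial and stromal list, 9.35 on the B-lineage list and 8.54 on the myeloid list.

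Most ribosomal proteins bind ribosomal RNA in the nucleolus and are needed in equal numbers, and their messenger RNAs are among the most abundant of a growing cell. Most of these messengers begin with a C followed by an unbroken run of pyrimidines, the terminal oligopyrimidine (TOP) motif, through which mTOR and the RNA-binding protein LARP1 control their translation, so that protein output can change with little change in messenger level. MYC, a NOTCH1 target in T-ALL, promotes ribosome production, and RPL5, RPL10 and RPL22 are recurrently mutated or deleted in this leukemia. Some ribosomal proteins have a retained gene copy with a narrower or different expression, such as RPL39L, RPL10L and RPL3L.

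The TOP motif is shown for genes that recur in the results, together with copies that lack it. Each sequence has 12 bases before the RefSeq transcription start and the first 18 bases of the transcript (GRCh38.p14), with the pyrimidine run that begins at the start in capitals. RPS19 and RPL11 have 2 starts each, of which the start with the motif was chosen for display and the other lacks it.
RPS6: cggaagttggccCTCTTTTCCgtggcgcct
RPS19: aaccccgtcgttCCCTTTCCCCTggctggc
RPL11: aagctccgctttCTCTTCCTgctctccatc
RPL22: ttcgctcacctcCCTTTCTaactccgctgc
RPL39: ttccgccagcttCCCTCCTCTTCCTTTCTC
RPS27: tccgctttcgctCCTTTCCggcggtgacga
RPS27L: ttgatgccgagcgcagatcgcttgcagctt
RPL10L: gcgtagttaagagagcgcattttgacttcg

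These windows lie at chr9:19380219-19380248 (minus strand) for RPS6, chr19:41860243-41860272 (plus) for RPS19, chr1:23691794-23691823 (plus) for RPL11 and chr1:6199578-6199607 (minus) for RPL22. Those of RPL39 and RPS27 lie at chrX:119791613-119791642 (minus) and chr1:153990750-153990779 (plus), and those of the copies RPS27L and RPL10L at chr15:63157460-63157489 (minus) and chr14:46651764-46651793 (minus). A start was available for 49 of the 57 genes, but not for RPL39L. A TOP start was counted as C at the first base followed by at least 4 C or T on the gene's strand. A gene with several starts was counted for a motif if any of them matched. By this count a TOP start was present in 34 of these 49 genes (69.4%), against 1404 of 27305 genes of the whole table (5.14%). Counted by start, it was present at 34 of 56 (60.7%), against 4.07% of all starts. In the same windows of 250 bases before to 50 after the start, searched on both strands, the ETS-type motif CCGGAAG was present in 18 of the 49 genes (36.7%, against 12.2% of all genes). The YY1-type motif AAGATGGCG was found in 3 genes (6.12% against 2.14%) and the E-box CACGTG in 3 (6.12% against 8.77%). These are matches of letters and do not show that a factor binds there.

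Most of the genes read near the top of the intensity range. Their mean log2 intensity had a median of 13.78, with 50 of 57 at 13 or above. The 7 below 13 were RPL39L, RPS27L, RPL27A, RPL10L, RPLP2, RPL36A and RPL3L. RPL3L was at the intensity floor of 16 on an array. RPL27A, RPLP2 and RPL36A also had probe sets that list several genes, which were left out. Values given for RPL27A, RPLP2 and RPL36A are those of a dim single-gene probe set only. On each array, 34 to 43 of the 57 genes lay within 1.5-fold of the brightest probe set, and whether this compressed differences was not tested. The second combination array stood apart from the rest: the median intensity of its probe sets was 76.3, against 61.8 to 63.9 on the other 7, while its brightest probe set read 18406, against 19199 to 19915. Results with the combination are therefore given for each of its arrays.

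With PF-03084014 alone, most of the probe sets that represent the ribosomal protein genes read within 0.1 of DMSO on the log2 scale. These readings come from near the top of the range, so compressed differences would read as small ones, which was not tested. The median difference from DMSO over the 57 genes was 0.020, and 0.018 over all genes, and 53 of 57 lay within 0.1 of zero. Among genes at or above log2 13 this held for 49 of 50 ribosomal protein genes and for 81.3% of the 246 other genes. None of the 57 was called at an adjusted p under 0.05 by limma, and none had an unadjusted p under 0.05. Of all 19775 genes, 0.824% were called in this comparison and 2621 had an unadjusted p under 0.05. At or above log2 13 the 95% interval of the difference stayed within 1.5-fold for all 50 ribosomal protein genes and for 241 of the 246 others. It did so for 53 of the 57 genes and for 44.3% of all genes. The exceptions among the 57 were RPL10L, RPL36A, RPL3L and RPLP2, whose probe sets were dim. In bulk RNA, fewer cells of a type and less RNA per cell cannot be told apart. The 50 genes at or above log2 13 differed by -0.11 to 0.063.

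RPS6, a small-subunit protein phosphorylated by S6 kinases downstream of mTOR, read 14.16 and 14.20 with DMSO and 14.22 and 14.17 with PF-03084014 (log2 intensity). Its 4 values overlap between the groups, and the difference was 0.011 ± 0.055 (log2, SE). RPL11, a large-subunit protein that binds MDM2 when ribosome assembly is disturbed, read 13.74 and 13.73 with DMSO and 13.81 and 13.78 with PF-03084014. Both treated arrays lay higher, by 0.062 ± 0.054 on average, and RPL11 was not called (adjusted p = 0.758). Both PF-03084014 arrays lay above both DMSO arrays for 22 of 57 genes (38.6%; 26.9% of all genes) and below them for 8 (14.0%; 19.7% of all genes).

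Among genes above log2 13, the lowest values with PF-03084014 were those of 3 large-subunit proteins. RPL36 stood at -0.11 ± 0.043 (adjusted p = 0.386), RPL14 at -0.099 ± 0.059 (adjusted p = 0.606) and RPL12, which forms the base of the ribosomal stalk, at -0.067 ± 0.094 (adjusted p = 0.883). High values were those of RPL10L, by a dim probe set, at 0.24 (95% interval -0.85 to 1.33) and of RPS27L at 0.099 (-0.34 to 0.53). Both are copies, but the copy RPL36AL stood at -0.034. RPL31 followed at 0.063. The naming rule also gives RPL3L, the muscle copy of RPL3, but it read at or next to the floor on most arrays, so its differences are set by the floor and have no order. RPL39L stood at -0.14 (adjusted p = 0.836), and none of these genes was called.

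**Figure D1:**
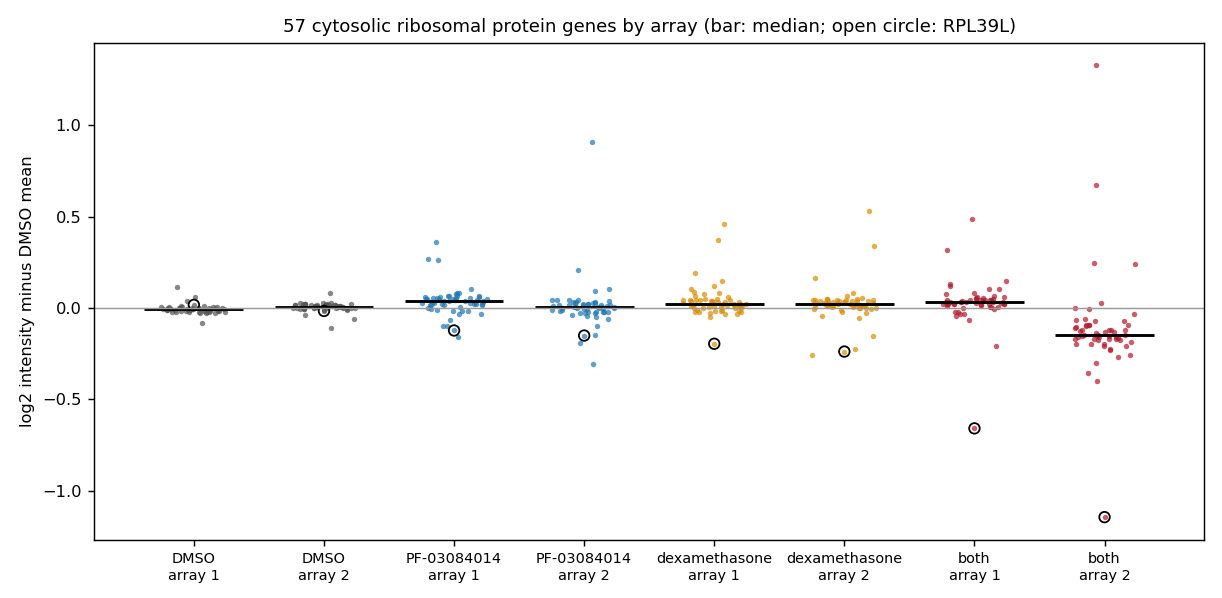
Log2 intensity minus the mean of the DMSO arrays (vertical axis) for the 57 cytosolic ribosomal protein genes (points) on each of the 8 arrays (horizontal axis, points spread sideways at random). Bars are medians and the open circle is RPL39L; the medians lie between 0.0031 and 0.036 on the PF-03084014, dexamethasone and first combination arrays and at -0.15 on the second combination array.

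With dexamethasone alone most of these probe sets also read within 0.1 of DMSO, with the same limit at the top of the range. All comparisons with DMSO share its 2 arrays, so they are not independent of each other. The median difference from DMSO was 0.022 over the 57 genes and 0.014 over all genes. A single-gene change was called by limma for 0 of 57 genes, none of which had an unadjusted p under 0.05 either, and for 0.101% of all genes. Of all 19775 genes, 1771 had an unadjusted p under 0.05. Again 53 of 57 genes lay within 0.1 of zero. Among genes at or above log2 13 this held for all 50 ribosomal protein genes and for 89.8% of the 246 others. The 95% interval stayed within 1.5-fold for 52 of 57 genes and for 46.6% of all genes. At or above log2 13 it did so for all 50 and for 98.8% of the 246 others. The 50 genes at or above log2 13 differed by -0.039 to 0.076. Both dexamethasone arrays lay above both DMSO arrays for 29 of 57 genes (50.9%; 24.9% of all genes) and below them for 6 (10.5%; 17.7% of all genes).

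The largest values with dexamethasone, those of RPL36A and RPL10L, came from dim probe sets. RPL36A, a large-subunit protein, read 5.66 and 5.71 with DMSO and 6.15 and 6.21 with dexamethasone. The groups did not overlap, but a difference of 0.49 at this intensity was not called (adjusted p = 0.758). RPL10L stood at 0.36 (adjusted p = 0.925), RPS27L at 0.14 and RPS9, a small-subunit protein, at 0.076 (adjusted p = 0.871). The lowest values were those of RPL39L (-0.22, adjusted p = 0.797), the stalk protein RPLP1 (-0.039) and, by a dim probe set, RPL27A (-0.038). RPS6 and RPL11 stood at 0.013 ± 0.055 and 0.044 ± 0.054.

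The other probe sets of the same genes were looked at after their values were seen, in a fit of all single-gene probe sets. There were 61 of them, 20 at or above log2 13 and 41 below. With PF-03084014, 0 of the 20 bright ones differed from DMSO by 0.1 or more, and 22 of the 41 dimmer ones did, over a range of -0.91 to 0.38 with a median of -0.063. With dexamethasone the counts were 0 of 20 and 28 of 41, the range of the dimmer ones -0.48 to 0.55 and their median 0.049. None of the 61 was called with either compound. Over all genes, each by its brightest probe set, 36.2% lay within 0.1 of DMSO with PF-03084014 and 39.9% with dexamethasone. Differences of 0.1 or more were thus common, and these counts are no result about the ribosomal protein genes.

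Several dimmer probe sets lay far from the reading of the brightest one. The probe set 1555878_at of RPS24, a small-subunit protein mutated in Diamond-Blackfan anemia, read 10.09 and 10.11 with DMSO, 9.32 and 9.49 with PF-03084014, 10.21 and 9.88 with dexamethasone, and 9.25 and 9.75 with both. Its PF-03084014 arrays lay below those of DMSO without overlap, by -0.70 (adjusted p = 0.290), while the brightest RPS24 probe set stood at 0.053. With PF-03084014, 213459_at of RPL37A stood at -0.91 (adjusted p = 0.517) and 229882_at of RPS15A at -0.58 (adjusted p = 0.521). With dexamethasone, 238026_at of RPL35A stood at 0.44 (adjusted p = 0.591). Small differences at the brightest probe sets do not show that all transcripts of these genes kept their level. With either compound alone no dimmer probe set was called, so these do not show a change either.

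The size of these medians lies at the limit of what the scaling of the arrays can resolve. Under quantile and cyclic loess normalization the median for PF-03084014 was -0.0045 and -0.019 in place of 0.020, so its sign depends on the normalization. That for dexamethasone was 0.025 and 0.015.

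In the combination, the 57 genes gave different answers on the 2 arrays. Their median difference from the DMSO mean was 0.033 on the first array, with 48 genes above and 9 below, and -0.15 on the second, with 6 above and 51 below. Averaged, 48 of 57 genes (84.2%) were below DMSO, with a median of -0.058, against 0.063 over all genes. Without the second array the median was 0.033, and without the first it was -0.15. The averaged median therefore rests on the second array. It also moved with the scaling, to -0.0014 under quantile and -0.052 under cyclic loess normalization.

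The distance between the replicate arrays was of another size in the combination than in the other groups. The median of the second minus the first array was -0.18 over the 57 genes in the combination, with 54 of 57 lower on the second, and 0.011, -0.035 and 0.0025 in the DMSO, PF-03084014 and dexamethasone groups. Other bright genes also read lower on the second combination array. The 246 other genes at or above log2 13 had a median of -0.087 against the DMSO mean there, with 72.0% below it, and the 50 ribosomal protein genes at that intensity a median of -0.15, with 96% below. On the first combination array these medians were 0.022 and 0.033. Dim genes went the other way, and the median of the second minus the first array was 0.18 for 7449 genes below log2 6. What part the array's intensity range had in these values was not tested.

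**Figure D2:**
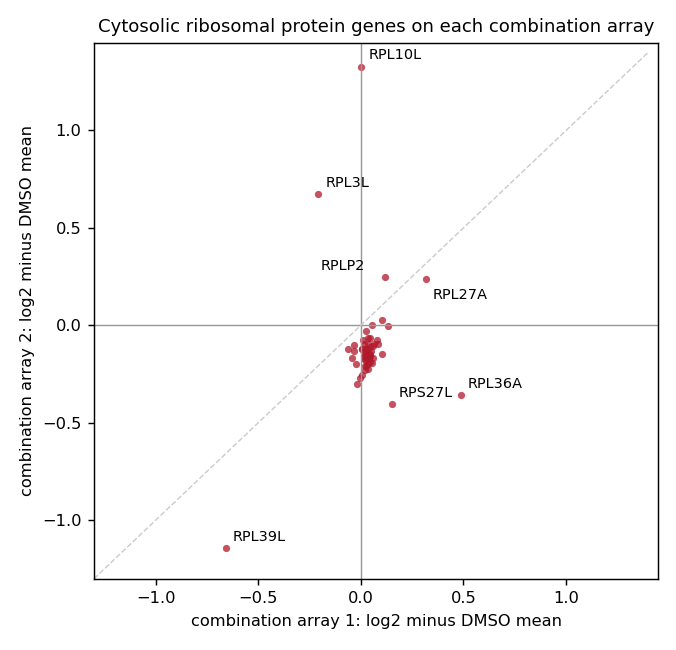
Each point is 1 of the 57 genes, placed by its log2 intensity minus the DMSO mean on the first (horizontal axis) and the second combination array (vertical axis), with the dashed line marking equal values. Most genes form a cluster just right of zero and below it; RPL39L is far below zero on both arrays, and RPL10L and RPL36A differ widely between them; the position of RPL3L is set by the intensity floor.

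Some markers of other cell types also differed in the combination. The summed intensity of 5 B-lineage markers was 812 to 847 with DMSO and 1009 to 1411 with the combination. Of these 5, 3 lay above DMSO and 2 below, and only CD79A was called (0.86, adjusted p = 0.00667). The sum of 5 myeloid markers was 529 to 582 with DMSO and 319 to 384 with the combination. Of those, 2 lay above DMSO and 3 below, and only ITGAM was called (-1.72, adjusted p = 0.00565). Neither list moved in 1 direction. CD14 was at the floor on all arrays but 1. The part of these markers in the ribosomal protein values was not tested.

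Under limma, 1 of 57 genes passed the threshold in the combination, RPL39L, which fell. Of all genes 12% were called, 6.43% higher and 5.54% lower. No other of the 57 had an unadjusted p under 0.05, which 5632 of all 19775 genes had. For 51 of 57 genes the 95% interval of the difference stayed within 1.5-fold, as it did for 35.0% of all genes. At or above log2 13 it did so for all 50 ribosomal protein genes and for 95.5% of the 246 others. Both combination arrays lay above both DMSO arrays for 3 genes (5.26%; 29.1% of all genes) and below them for 6 (10.5%; 21.5% of all genes). The count of calls depends on single arrays: without the first combination array 35 genes were called, 34 lower and 1 higher (31.4% of all genes were called). In that fit 1 combination array is tested against the spread within the other groups and is assumed to vary like them, whereas the 2 combination arrays differed by -0.18 at the median. With any of the 6 DMSO, PF-03084014 or dexamethasone arrays left out 0 were called, and without the second combination array 1 was (10.7% of all genes).

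RPL39L encodes a copy of RPL39, a small basic protein in the wall of the exit tunnel of the large subunit, and is known for high expression in testis and in some tumours. It read 10.69 and 10.66 log2 intensity with DMSO, 10.55 and 10.52 with PF-03084014, 10.48 and 10.44 with dexamethasone, and 10.02 and 9.53 with both compounds. Each treated group lay below DMSO without overlap, and the combination arrays lay lowest. In linear intensity this was 1655 and 1617 with DMSO and 1036 and 740 with the combination. The change in the combination was -0.90 ± 0.153 (log2, SE; adjusted p = 0.0232), which is 0.535 of the DMSO level. Without the first combination array it was -1.14 and without the second -0.66. Either value rests on 1 combination array, and its test would use the spread within the other groups only. The size held when any other array was left out, -0.89 to -0.92, with adjusted p of 0.0636 to 0.112, so the call was lost each time.

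RPL39, whose TOP start is shown above, was near the top of the range. It read 13.92 on both DMSO arrays, 13.98 and 13.95 with PF-03084014, 13.89 on both dexamethasone arrays, and 13.94 and 13.79 with the combination. Its difference in the combination was -0.050 (95% interval -0.19 to 0.093), which does not reach the interval of RPL39L (-1.29 to -0.52). The difference between the copies was not tested.

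**Figure D3:**
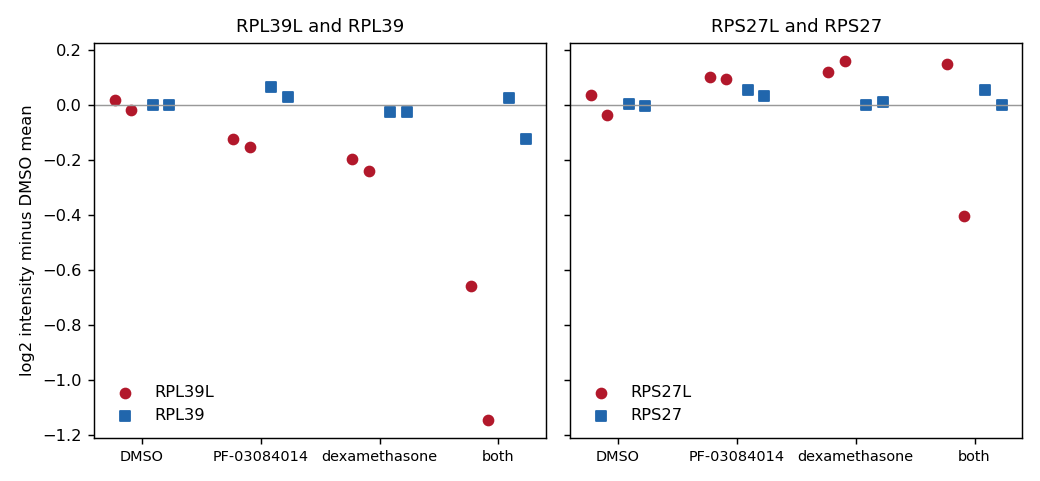
Log2 intensity minus the DMSO mean (vertical axis) for RPL39L with RPL39 (left) and RPS27L with RPS27 (right) in the 4 groups (horizontal axis), 1 symbol per array. RPL39L is low on both combination arrays, while RPS27L is low on the second combination array only.

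The other copies did not pass the test in any comparison with DMSO. RPS27L, a p53-responsive copy of RPS27 without a TOP start in the window shown, read 12.20 and 12.12 with DMSO, 12.26 and 12.25 with PF-03084014, 12.28 and 12.32 with dexamethasone, and 12.31 and 11.76 with the combination. The single-compound arrays and the first combination array lay above both DMSO arrays, and the second combination array lay below all others. RPS27L thus averaged -0.13 in the combination (adjusted p = 0.680) and 0.15 without its second array. Another RPS27L probe set, 222487_s_at, ran the other way: it read 9.04 on the first combination array, the lowest of its 8 values, and 9.83 on the second, the highest. RPS27, the parent, stayed between 14.04 and 14.10 on all 8 arrays.

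RPL10L, a copy of RPL10 known from testis, had no TOP start and read 6.34 and 6.12 with DMSO, 6.50 and 6.44 with PF-03084014 and 6.60 and 6.57 with dexamethasone. The combination arrays read 6.23 and 7.56, the widest gap among the 57 genes (1.33), and the mean difference of 0.66 was not called (adjusted p = 0.369). RPL3L read at or near the floor, so no gap or difference is given for it, and its parent RPL3 stood at -0.0052. RPL36A read 6.17 and 5.33, a gap of -0.85, and its copy RPL36AL, which has no TOP start at its RefSeq start, stood at -0.083 ± 0.045 (adjusted p = 0.299). Outside the naming rule, RPL22L1, a copy of RPL22, and RPL26L1, a copy of RPL26, stood at 0.0044 and -0.18 in the combination, with adjusted p of 1 and 0.463.

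The remaining extremes in the combination were small. RPL27A, whose probe set was dim, read 9.63 and 9.51 with DMSO and 9.89 and 9.81 with the combination, a difference of 0.28 (adjusted p = 0.386). RPLP2, an acidic stalk protein that pairs with RPLP1, stood at 0.18 by a dim probe set (adjusted p = 0.721) and RPLP1 at -0.030. Apart from RPL39L the lowest values were those of RPL12 at -0.16 (adjusted p = 0.328), RPL23A, which helps dock the signal recognition particle, at -0.14 (adjusted p = 0.375) and RPS27L. RPL12 read 13.63 on the first combination array and 13.35 on the second, against 13.63 and 13.68 with DMSO, so its distance came from the second array.

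RPS19, the gene most often mutated in Diamond-Blackfan anemia, read 14.00 and 14.05 with DMSO and 14.04 and 13.87 with the combination. RPS14, whose loss marks a form of myelodysplastic syndrome, read 13.77 and 13.80 with DMSO and 13.80 and 13.61 with the combination. For both genes the first combination array was within the range of the other groups or level with it and the second was the lowest of all 8. Their differences were -0.068 (adjusted p = 0.536) and -0.079 (adjusted p = 0.494). RPL11 stood at 0.064 ± 0.054 and RPS6 at -0.059 ± 0.055.

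Large-subunit and small-subunit genes had similar medians. With PF-03084014 the medians were 0.017 for 36 large-subunit and 0.023 for 21 small-subunit genes, with dexamethasone 0.028 and 0.0099, and with the combination -0.056 and -0.058. On the second combination array alone they were -0.14 and -0.15.

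RPL22, a large-subunit protein that is recurrently deleted in T-ALL, gave different readings by probe set. Its 3 brightest probe sets, all of the type that can cross-match other transcripts (suffix _x_at), stood between -0.090 and -0.065 in the combination. Another, 214042_s_at, read 12.46 and 12.55 with DMSO, 12.53 and 12.59 with PF-03084014, 12.72 and 12.82 with dexamethasone, and 12.81 and 12.90 with both. Each dexamethasone-treated array lay above all arrays without dexamethasone. In a fit of all 41097 single-gene probe sets its change in the combination was 0.35 ± 0.062 (adjusted p = 0.0357) and that with dexamethasone 0.26 (adjusted p = 0.372). The last, 221726_at, stood at 0.34 with dexamethasone (adjusted p = 0.321), 0.28 with the combination (adjusted p = 0.0782) and -0.041 with PF-03084014.

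**Figure D4:**
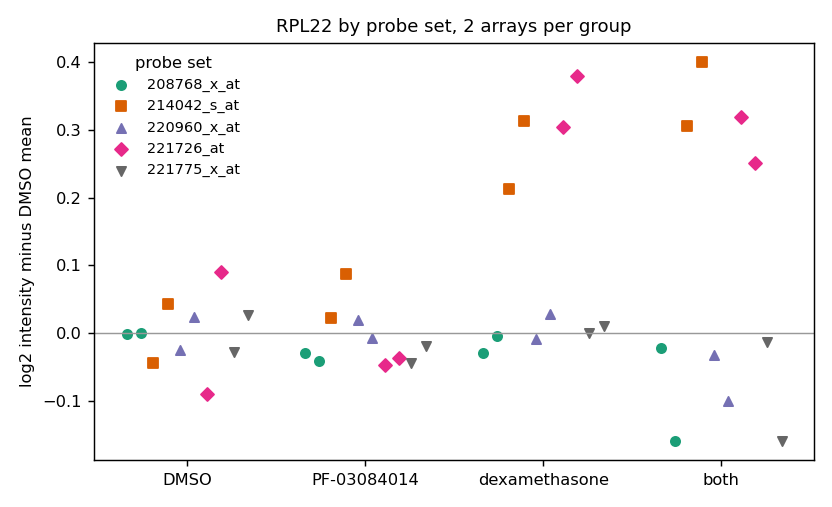
Log2 intensity minus the DMSO mean (vertical axis) for the 5 probe sets of RPL22 in the 4 groups (horizontal axis), 1 symbol per array and 1 colour per probe set. The probe sets 214042_s_at and 221726_at are higher on the dexamethasone and combination arrays, and the 3 _x_at probe sets stay near zero.

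Over the 118 probe sets of the 57 genes, that fit called 3 in the combination (7.95% of all probe sets were called), and 0 with PF-03084014 (0.394%) and 0 with dexamethasone (0.0487%). The third, beside those of RPL39L and RPL22, was 221593_s_at of RPL31, which fell: it read 9.78 on both DMSO arrays, 9.41 and 9.48 with PF-03084014, 9.90 and 9.97 with dexamethasone, and 9.26 and 9.43 with both compounds. Its change in the combination was -0.43 ± 0.067 (adjusted p = 0.0277), and that with PF-03084014 was -0.33 (adjusted p = 0.164). The brightest RPL31 probe set, which represents the gene, stood at -0.069. Which transcripts each of these probe sets detects was not examined.

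Against each single compound, the combination called 0 of 57 genes. Against dexamethasone 7.26% of all genes were called, and the median was -0.071 over the 57 genes and 0.040 over all genes. An unadjusted p under 0.05 was found for 3 of the 57 and for 5125 of all 19775 genes. Against PF-03084014 2.87% were called, and the medians were -0.072 over the 57 genes and 0.027 over all genes. Here 1 of the 57 had an unadjusted p under 0.05, and 3695 of all 19775 genes did. Both combination arrays lay below both arrays of the single compound for 15 genes against dexamethasone (26.3%; 23.4% of all genes) and for 6 against PF-03084014 (10.5%; 20.1% of all genes), and above them for 1 each (27.8% and 23.2% of all genes). Both medians over the 57 genes moved with the second combination array and the scaling. Without that array they were 0.014 against dexamethasone and 0.011 against PF-03084014, and under quantile normalization -0.024 and 0.0032. With both of these choices they were -0.014 and 0.023. With all arrays the median against dexamethasone stayed below zero under each normalization. RPL39L stood at -0.68 against dexamethasone (adjusted p = 0.0620) and -0.76 against PF-03084014 (adjusted p = 0.0764). Without the first combination array 39 of the 57 genes were called against dexamethasone (29.4% of all genes) and 32 against PF-03084014 (19.8%), again from 1 combination array set against the spread within the other groups. Without the second, 1 was called in each (5.23% and 2.56% of all genes).

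Other genes of the translation pathway were described from lists, for comparison. Of 19 other messengers of the translation machinery known or thought to carry a TOP start, 15 were measured and 0 called in any of the 3 comparisons with DMSO. Their medians were 0.020, 0.021 and 0.023 with PF-03084014, dexamethasone and the combination, and 0, 0 and 1 had an unadjusted p under 0.05. Over all 19775 genes such a p was found for 2621, 1771 and 5632. The elongation factor genes EEF1A1 and EEF2 stood at -0.030 and 0.049 in the combination, and the initiation factor genes EIF3L and EIF3H at 0.11 and 0.12.

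Genes that build ribosomes lay farther from DMSO at the median than the genes of ribosomal proteins. Of 28 measured ribosome biogenesis genes, 0 were called with PF-03084014 and 0 with dexamethasone, with medians of -0.22 and 0.080. An unadjusted p under 0.05 was found for 14 and 2 of the 28, against 2621 and 1771 of all 19775 genes. In the combination 2 fell (5.54% of all genes were called lower), UTP4 (-0.48 ± 0.076, adjusted p = 0.0187) and NOP14 (-0.23 ± 0.048, adjusted p = 0.0383), both factors of small-subunit processing, and the median was -0.16. UTP4 kept its call in 14 alternative settings and lost it in 7, and NOP14 kept it in 3 and lost it in 16. Among 15 measured assembly and chaperone genes 1 fell, also near the share over all genes: BYSL, a factor of small-subunit maturation. BYSL read 10.92 and 10.68 with DMSO, 10.59 and 10.44 with PF-03084014, 10.71 and 10.68 with dexamethasone, and 9.60 and 9.63 with the combination. Its change of -1.19 ± 0.093 (adjusted p = 0.00388) showed on both combination arrays alike.

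The 72 genes for mitochondrial ribosomal proteins, which serve the separate ribosomes of mitochondria, had medians of -0.14 with PF-03084014 and 0.10 with dexamethasone, with 0 called in either. An unadjusted p under 0.05 was found for 13 and 6 of the 72, against 2621 and 1771 of all 19775 genes. In the combination 7 of 72 fell, against 5.54% of all genes, among them MRPL17 (-1.02 ± 0.16, adjusted p = 0.0183) and MRPS25 (-0.49 ± 0.062, adjusted p = 0.0106), and the median was -0.24. Without the second combination array the median was -0.085, with 5 lower and 1 higher (10.7% of all genes were called). Without the first it was -0.38, with 47 lower and 1 higher, where 31.4% of all genes were called with 1 combination array in the fit. Without the first DMSO array 0 were called, and 829 of all genes were, in place of 2368. Both PF-03084014 arrays lay below both DMSO arrays for 47 of the 72 genes (19.7% of all genes), and both dexamethasone arrays above them for 45 (24.9% of all genes). The medians of the biogenesis and mitochondrial lists kept these signs under quantile, cyclic loess and median scaling. Differences between the lists, which were not matched for intensity, were not tested.

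**Figure D5:**
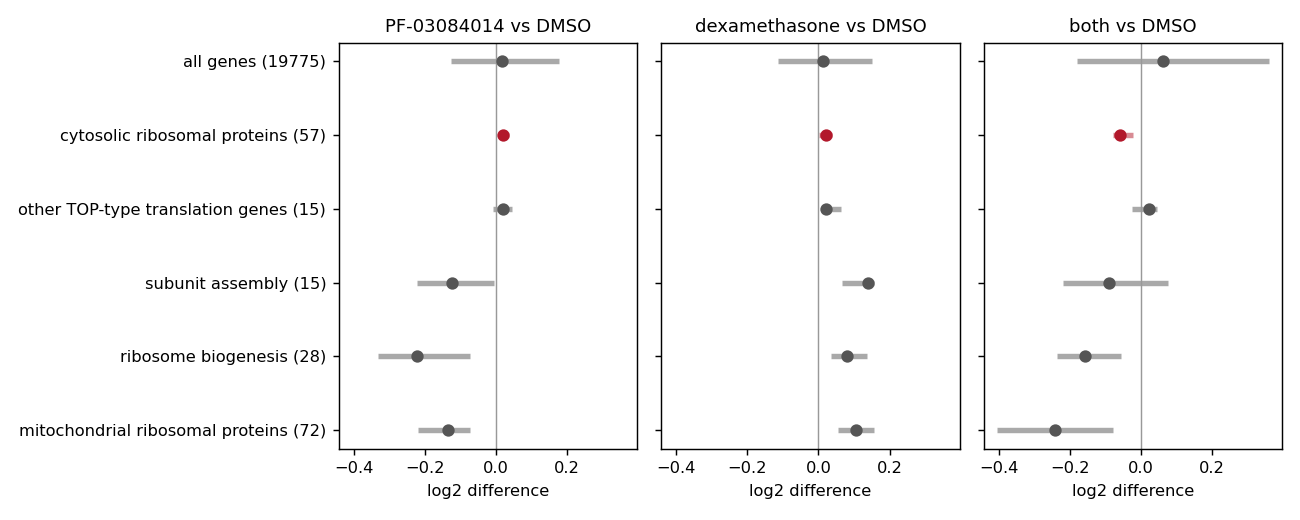
Median (point) and interquartile range of the log2 differences (bar) from DMSO, on the horizontal axis, for all genes and for 5 lists of genes of the translation pathway with the number measured in brackets, in the 3 treatments (panels). The cytosolic ribosomal proteins and the other TOP-type genes lie within 0.058 of zero at the median, while the biogenesis and mitochondrial lists lie below zero with PF-03084014 and the combination and above it with dexamethasone. The lists were not matched for intensity.

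Of 18 genes that control TOP translation through mTOR, 3 had an unadjusted p under 0.05 with PF-03084014 and 3 with dexamethasone. Over all 19775 genes 2621 and 1771 did. Of the 18, 0 were called with either compound alone and 3 in the combination. A count of 3 of 18 is near the 12% of all genes called in it, so it is no result about the list. TSC1, which restrains mTOR, rose by 0.61 ± 0.087 (adjusted p = 0.0147). RPS6KB2, an S6 kinase, fell by 0.44 on the log2 scale (adjusted p = 0.00993), and EIF4EBP1, a repressor of cap-dependent translation, changed by -1.24 ± 0.21 (adjusted p = 0.0242). EIF4EBP1 read 9.86 and 9.83 with DMSO, 9.39 and 9.14 with PF-03084014, 9.73 and 9.69 with dexamethasone, and 8.92 and 8.29 with the combination. Both combination arrays lay below all others. The calls of TSC1, RPS6KB2 and EIF4EBP1 were kept in 18, 17 and 15 alternative settings and lost in 3, 2 and 6. The arrays measure messenger levels only, and translation was not measured.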

How the data were processed

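For each of 8 arrays the authors deposited linear intensities of 54675 probe sets. Per the labels, the kit amplified from the 3 prime end and each labelling took 200 ng RNA. How intensities were summarised and normalized is not given in the sources used here. Intensities below 16 were set to 16 and converted to log2. Of 42898 annotated probe sets, the 1801 with several genes were left out, and 41097 gave 19775 genes, each by its brightest probe set. limma 3.58.1 in R 4.3.3 fitted a mean per group over all arrays (4 residual degrees of freedom, eBayes with intensity trend), with Benjamini-Hochberg adjustment over all genes per contrast, two-sided, called at 0.05. Values after ± are standard errors of the fit. Precision is limited by having 2 arrays per group: standard errors of a difference had a median of 0.068 for the 57 genes and 0.18 for all genes. The script was tested on simulated data. Promoter sequences are from RefSeq.

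The genes and lists were chosen with earlier results of these data known, and no test over a list was made. Named were the genes called (up to 12 per contrast), the 4 largest rises and falls of each treatment, gene copies with their parents, genes altered in T-ALL, and the 3 with the widest gap between combination arrays; from other lists, up to 3 called genes or, with none, the smallest p. Chosen after seeing the data were the fit on single probe sets, the probe sets other than the brightest, the classes by intensity, and quantile normalization joined with leaving out _x_at and _s_at probe sets or combination array 2. Alternatives planned were other normalizations, floors, filters, probe-set choices and fits, replicate number as a block, and leaving out arrays singly.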

Additional observations from a re-analysis of the deposited data

How the results depend on the processing

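Each array in turn was left out, and 13 other settings were tried. PF-03084014 and dexamethasone called 0 of the 57 genes against DMSO in all of them. RPL39L kept its direction in each setting, and its call in the combination was lost only when a DMSO, PF-03084014 or dexamethasone array was left out. Where a combination array was left out, the lone array is assumed to vary like the other groups. BYSL kept its call in all 21 settings in which it was tested. With an array left out, the count of the 57 called ranged from 0 to 35 for the combination against DMSO, from 0 to 39 against dexamethasone and from 0 to 32 against PF-03084014. Their median ranged from -0.148 to 0.033, from -0.159 to 0.014 and from -0.170 to 0.011, from 0.0031 to 0.036 for PF-03084014 and from 0.011 to 0.031 for dexamethasone. The counts of all genes ranged from 829 to 6215 (combination against DMSO), 0 to 5818 (against dexamethasone), 10 to 3918 (against PF-03084014), 0 to 356 (PF-03084014) and 0 to 6 (dexamethasone).

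The median over the 57 genes for PF-03084014 was -0.0045 under quantile normalization, with or without the second combination array, -0.019 under cyclic loess, -0.0036 without _x_at and _s_at probe sets and -0.027 with both of these choices and quantile normalization. For dexamethasone it was 0.015 under cyclic loess and 0.040 with arrays shifted to a common median. That shift, which moves the median of all genes against dexamethasone from 0.040 to -0.076 and against PF-03084014 from 0.027 to -0.075, gave -0.156 for the combination against DMSO, -0.187 against dexamethasone and -0.174 against PF-03084014. Quantile normalization without the second combination array gave 0.023 against PF-03084014 and -0.014 against dexamethasone. RPL36A in the combination (0.065) turned to -0.047 under quantile normalization, -0.069 under cyclic loess, -0.033 under the median shift, -0.057 under quantile normalization without _x_at and _s_at probe sets and -0.36 without the first combination array, and was 0.49 without the second. RPS27L in the combination (-0.13) turned to 0.15 without the second combination array, against -0.40 without the first, and 0.11 with quantile normalization as well. The cause was not tested.

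In the main fit the combination called 12% of all genes against DMSO, 7.26% against dexamethasone and 2.87% against PF-03084014. Under cyclic loess it called 2781, 1803 and 632 of all 19775 genes. Beside these shares, counts of 1 or 2 of 57 are no result about the family. With the mean of all probe sets the combination called 2 of the 57 genes against DMSO, RPL31 and RPL39L. Against dexamethasone it called 1 under cyclic loess, a pseudocount of 16, a mean intensity of at least 100, the mean of all probe sets, without _x_at and _s_at probe sets, and quantile normalization without its second array. Against PF-03084014 it called 1 under cyclic loess, the pseudocount, the intensity minimum, and quantile normalization without its second array.

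Counts of all genes moved by over 1.5 times as follows. The combination against DMSO (2368) gave 1563 under the median shift and 863 with array weights. Against dexamethasone (1435) the counts were 802 (median shift), 2364 (intensity minimum), 787 (mean of probe sets), 949 (without _x_at and _s_at), 914 (no trend), 208 (array weights), 906 (quantile without _x_at and _s_at) and 905 (quantile without the second combination array). Against PF-03084014 (568) they were 329, 945, 285, 278 (no trend), 18 (array weights) and 367 (quantile without _x_at and _s_at) in the same order. PF-03084014 (163) gave 269 under cyclic loess, 321 with the pseudocount, 426, 93, 73 and 732 with the minimum, the mean, no trend and weights, and 262 under quantile normalization without the second combination array. Dexamethasone (20) gave 11 under quantile normalization, 55, 60, 8, 11, 9 and 111 with the pseudocount, the minimum, the mean, without _x_at and _s_at, no trend and weights, and 8 and 5 under the paired quantile choices. Under the median shift the share of calls that were higher went from 53.7% to 37.3% (combination against DMSO), from 45.0% to 22.7% (against dexamethasone), from 38.4% to 27.4% (against PF-03084014), from 57.7% to 47.6% (PF-03084014) and from 85% to 100% (dexamethasone).

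The labels share only a replicate number between groups. Same-numbered arrays correlated in their deviations from the group means with r of 0.078 to 0.21 over 9995 genes above log2 7. With a replicate block PF-03084014 called 79 and dexamethasone 3 genes, and RPL39L in the combination kept its call (adjusted p = 0.0286). Depth is not given by intensities; the 2 arrays per group and the bright probe sets limit what can be resolved.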

Other observations

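Of the 25 genes of the family without a probe set of their own, 15 were covered by probe sets that list several genes. The brightest such probe set of each gene had a median difference from DMSO of 0.019 with PF-03084014, 0.011 with dexamethasone and -0.060 with the combination. On the first combination array 14 of the 15 lay above the DMSO mean (median 0.036), and on the second all 15 lay below it (median -0.13). These probe sets were outside the comparisons above and were looked at after the data were seen.

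RPL37, a zinc-binding protein of the large subunit, had 4 probe sets. The brightest read between 13.98 and 14.09 on all arrays. The probe set 224763_at read 8.87 and 9.13 with DMSO, 8.77 and 8.81 with PF-03084014, 9.47 and 9.56 with dexamethasone, and 9.01 and 8.99 with the combination. Its dexamethasone arrays lay above all other arrays, by 0.52 over DMSO (adjusted p = 0.277), and it was not called. The other dim RPL37 probe sets stood lower with PF-03084014, 224766_at at -0.43 (adjusted p = 0.663) and 224767_at at -0.41 (adjusted p = 0.498). With dexamethasone they stood at 0.28 and 0.27, and in the combination at -0.73 (adjusted p = 0.164) and -0.071.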
